A study of Mus musculus with 12 samples.

Results

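Heat shock proteins were followed through skeletal muscle and hypothalamus of a chromosome 17 congenic mouse strain. The 10 genes were Hspa1a, Hspa1b, Hspa1l, Hsp90ab1, Hsp90aa1, Hspa8, Hspb1, Hspb7, Cryab and Dnajb1, taken as every probe whose gene name in the platform annotation was one of them by current name or synonym. Of the 10 genes, 4 had a named probe, with 1 probe each among 33012 probes and 13840 named genes: Hspa1l (probe 379841), Hspb7 (probe 572745), Cryab (probe 913499) and Dnajb1 (probe 706183). The other 6, Hspa1a, Hspa1b, Hsp90ab1, Hsp90aa1, Hspa8 and Hspb1, were not measured under a gene name here. The annotation used left 18354 probes without a gene name and gave 247 several, and none of these 247 named a heat shock gene of the 10. Msh5, which the gene table lists among the synonyms of Hspa1l, is a gene of its own and was not counted.

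The congenic strain B6.CAST-17 is homozygous for a stretch of chromosome 17 from the wild-derived CAST strain on the B6 background, and was compared with wild type B6. All mice were male, 3 per strain for each tissue, and their age is not given in the sources used here. There were 4 groups of 3 arrays: congenic muscle, wild type muscle, congenic hypothalamus and wild type hypothalamus. Only the hypothalamus titles call the congenics short, and whether both tissues came from the same mice and the same congenic line is not given in the sources used here. The strain difference therefore answers whether a CAST segment on chromosome 17 goes with another level of these genes, whose Hspa1a, Hspa1b, Hspa1l and Hsp90ab1 lie on that chromosome. The ends of the segment are not stated, so it is unknown whether it holds any of the 4.

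Heat shock proteins are chaperones, which bind unfolded or partly folded proteins, keep them from aggregating and help them fold. HSP70 proteins bind and release their clients in a cycle driven by ATP, J proteins such as Dnajb1 deliver clients and start the ATP hydrolysis, HSP90 proteins finish the folding of kinases and receptors, and small heat shock proteins hold unfolded clients without ATP. Heat shock factor 1 switches many of these genes on under stress by binding the heat shock element, and contracting muscle is a tissue where small heat shock proteins protect the filaments of the sarcomere.

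In the GRCm38.p6 gene table the HSP70 cluster on chromosome 17 holds Hspa1b at chr17:34956429-34959238, Hspa1a at chr17:34969359-34972156 and Hspa1l at chr17:34972703-34979228. Hsp90ab1 lies further along at chr17:45567778-45573261. The remaining genes are on other chromosomes, with Cryab at chr9:50745951-50756636, Hspb7 at chr4:141420779-141425310, Dnajb1 at chr8:83608175-83612653, Hsp90aa1 at chr12:110691036-110696395, Hspa8 at chr9:40801276-40805202 and Hspb1 at chr5:135887919-135889563. These positions place the genes only, since the build of the array design is not given in the sources used here.

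Promoter sequences from RefSeq on GRCm38.p6 were on hand for 6 of the 10 genes in 7 windows. The 250 bases before the start are shown for the 3 measured genes that have an entry and for Hspa1a, because Hspa1a and Hspa1l start 546 bases apart on opposite strands and so share their upstream DNA, while only Hspa1l carried a probe. Each is written 5′ to 3′ on the strand of its gene. Capitals mark the core of a heat shock element, searched as GAANNTTC or TTCNNGAA, and the CCAAT box on either strand, where it reads ATTGG on the other strand. Both heat shock motifs read the same on either strand.
Hspa1l, chr17:34972453-34972702, plus strand: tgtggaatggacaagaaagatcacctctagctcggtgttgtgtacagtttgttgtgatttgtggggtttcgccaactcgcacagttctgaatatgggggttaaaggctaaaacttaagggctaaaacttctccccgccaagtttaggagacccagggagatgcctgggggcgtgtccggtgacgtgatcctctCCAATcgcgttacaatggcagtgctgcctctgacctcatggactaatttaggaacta
Hspa1a, chr17:34972157-34972406, minus strand: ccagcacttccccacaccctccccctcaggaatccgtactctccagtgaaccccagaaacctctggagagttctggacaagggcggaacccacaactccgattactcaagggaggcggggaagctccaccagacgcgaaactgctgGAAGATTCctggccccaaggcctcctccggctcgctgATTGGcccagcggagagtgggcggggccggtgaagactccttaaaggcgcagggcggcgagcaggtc
Hspb7, chr4:141420529-141420778, plus strand: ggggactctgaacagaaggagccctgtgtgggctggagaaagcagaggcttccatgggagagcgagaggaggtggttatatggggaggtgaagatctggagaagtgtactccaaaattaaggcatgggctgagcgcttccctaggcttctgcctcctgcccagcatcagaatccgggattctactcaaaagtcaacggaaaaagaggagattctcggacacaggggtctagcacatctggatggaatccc
Dnajb1, chr8:83607925-83608174, plus strand: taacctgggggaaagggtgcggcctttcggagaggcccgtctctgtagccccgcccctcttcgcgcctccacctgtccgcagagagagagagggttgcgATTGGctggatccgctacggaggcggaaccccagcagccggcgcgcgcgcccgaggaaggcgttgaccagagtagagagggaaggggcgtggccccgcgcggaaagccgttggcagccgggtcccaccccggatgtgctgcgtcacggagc
The Hspa1a window held 1 heat shock core, GAAGATTC, whose first base lies 104 bases before the start, and an ATTGG 67 bases before it. Hspa1b, its near copy, held the same matches at the same distances, and 247 of its 250 upstream bases were equal to those of Hspa1a. The Hspa1l window held no heat shock core and 1 CCAAT, 57 bases before the start. Dnajb1 held an ATTGG 151 bases before the start of the window shown and no heat shock core in either of its windows, and Hspb7 held neither motif. Hspb1, not shown, held GAAGTTTC and GAACCTTC, which begin 117 and 97 bases before the start. Among 32851 mouse promoter windows, 12.8% held a heat shock core of either form and 33.8% held a CCAAT box.

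The arrays gave 1 value per probe, deposited on a log scale with a range of 5.35 to 21.1, read here as log2. Within a tissue the 6 arrays shared 1 distribution, as quantile normalization gives. Wild type hypothalamus array 1 stood apart from the rest of its tissue: its Spearman correlations over all probes with the other 5 hypothalamus arrays were 0.420 to 0.461, against 0.775 to 0.853 among those 5 and 0.796 to 0.862 among the muscle arrays. Summed levels of astrocyte markers (4 of 7 measured) were 17.15 to 19.30 on the congenic hypothalamus arrays, 18.58 to 19.41 on wild type arrays 2 and 3 and 11.85 on wild type array 1, in log2 units. The medians of these markers lay closer together, at 11.07 to 11.76, 10.68 to 10.80 and 9.81. Macrophage and microglia markers (5 of 8 measured) summed higher on wild type array 1, at 16.98, against 14.61 to 15.70 on the congenic arrays and 15.38 to 15.45 on wild type arrays 2 and 3. Their median was lower on wild type array 1, at 9.28, against 12.34 to 13.07 and 13.09 to 13.22. Markers of the labelled tissues were high in them: skeletal muscle markers (9 of 11 measured) summed to 23.02 to 23.19 on the muscle arrays, against 13.17 to 15.32 on the hypothalamus arrays. Neuron markers (8 of 9 measured) summed to 14.89 to 15.22 on the muscle arrays, against 18.34 to 19.75 on the hypothalamus arrays. Hypothalamus results are given with all 6 arrays and without wild type array 1.

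No strain difference of the 4 measured heat shock genes passed the test in either tissue. Strain effects are congenic minus wild type on the log2 scale from limma, with Benjamini-Hochberg adjustment over all 33012 probes and a threshold of 0.05. In muscle 0 of the 4 passed, against a background of 0.0182% of all probes, and in hypothalamus 0 of the 4 passed, against 0.0% with all 6 arrays and 0.0% without wild type array 1. An unadjusted p under 0.05 was met by 0 of the 4 in muscle, where 5.01% of all probes met it, by 0 of the 4 in hypothalamus, where 1.99% did, and by 1 of the 4, Cryab, without wild type array 1, where 5.33% did. When the strain effect in muscle was set against that in hypothalamus, 0 of the 4 passed, against 0.0% of all probes with and without that array, and 0 of the 4 had an unadjusted p under 0.05 with all arrays, against 3.63%.

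**Figure D1:**
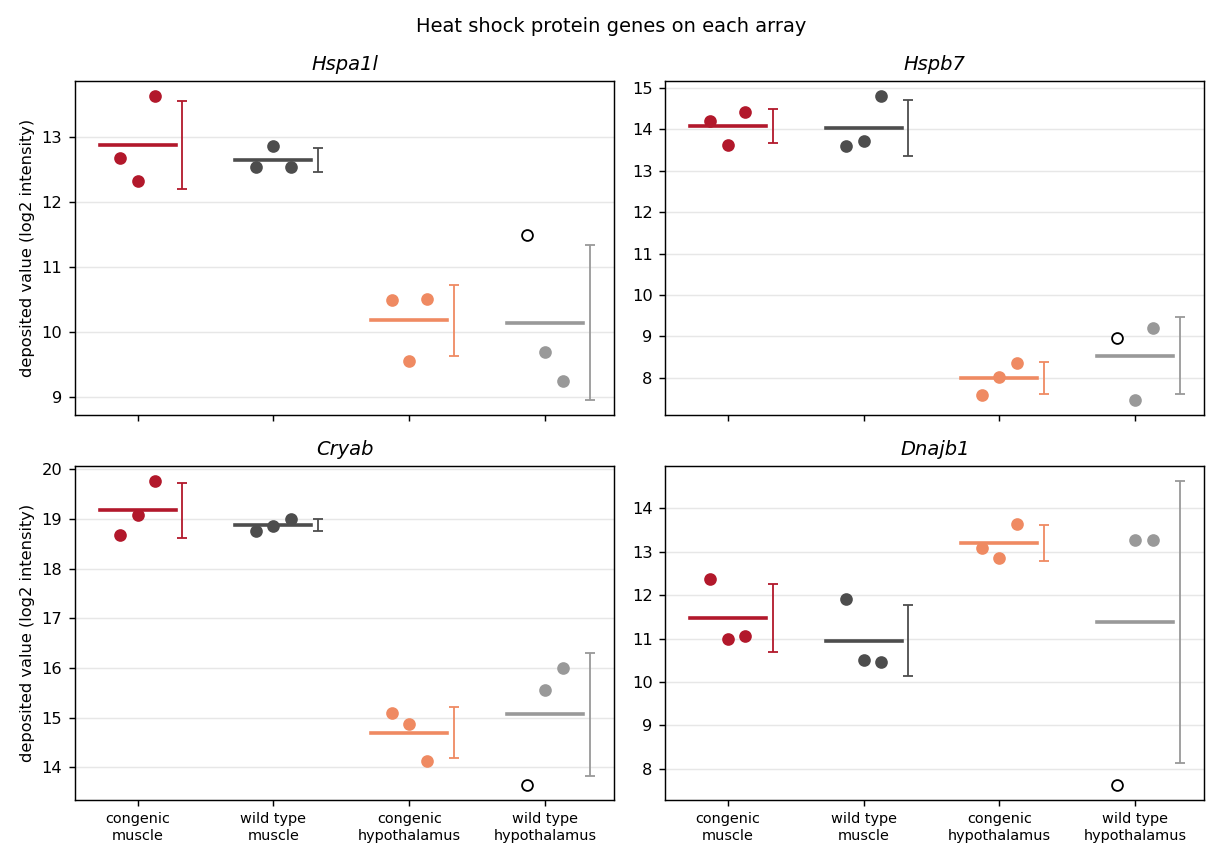
Deposited log2 intensity of Hspa1l, Hspb7, Cryab and Dnajb1 on each of the 12 arrays. Points are arrays, horizontal lines are group means and the bars beside them are 1 SD (n = 3), with wild type hypothalamus array 1 drawn as an open circle and included in its group. The strains overlap in both tissues, and the open circle for Dnajb1 stands at 7.64, far below every other hypothalamus array.

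Hspa1l, the member of the chromosome 17 HSP70 cluster with a probe, is known in mouse mainly from the testis, where it acts in sperm development. It read 12.68, 12.33 and 13.63 on the congenic muscle arrays, against 12.54, 12.86 and 12.55 on the wild type muscle arrays. The highest and the lowest muscle value both came from congenic mice, so the strains overlapped. The means were 12.88 ± 0.67 in congenic muscle and 12.65 ± 0.18 in wild type muscle (SD, n = 3 each), a difference of 0.23 with a 95% interval of -0.49 to 0.95 (limma, adjusted p = 0.900). In hypothalamus it read 10.49, 9.55 and 10.51 on the congenic arrays, against 11.50, 9.70 and 9.25 on the wild type arrays. Wild type array 1 was the highest of the 6. With it the difference was 0.04 with an interval of -1.72 to 1.79 (limma, adjusted p = 0.993), and without it 0.71 with an interval of -0.38 to 1.80 (limma, adjusted p = 0.900). Congenic array 2 still lay between the 2 remaining wild type arrays. The strain effect was larger in muscle than in hypothalamus by 0.19 with all arrays, with an interval of -1.64 to 2.02, and smaller by 0.48 without wild type array 1, at -0.48 with an interval of -1.69 to 0.72 (limma, adjusted p = 0.976 and 0.875). Germ cell markers (5 of 6 measured) summed to 10.31 to 12.08 in congenic muscle, 10.66 to 11.04 in wild type muscle, 9.94 to 11.10 in congenic hypothalamus and 10.01 to 10.56 on wild type hypothalamus arrays 2 and 3, and to 12.58 on wild type hypothalamus array 1.

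Cryab encodes alpha B crystallin, a small heat shock protein abundant in lens and striated muscle that protects desmin filaments. It read 18.68, 19.09 and 19.77 on the congenic muscle arrays, against 18.77, 18.86 and 19.00 on the wild type muscle arrays. The 3 wild type values fell inside the range of the congenic ones. The means were 19.18 ± 0.55 in congenic muscle and 18.88 ± 0.12 in wild type muscle (SD, n = 3 each), a difference of 0.30 with an interval of -0.25 to 0.85 (limma, adjusted p = 0.846). In hypothalamus it read 15.10, 14.87 and 14.12 on the congenic arrays, against 13.65, 15.55 and 15.99 on the wild type arrays. Wild type array 1 was the lowest of the 6 and the other wild type arrays were the highest. With all 6 arrays the difference was -0.37 with an interval of -2.09 to 1.35 (limma, adjusted p = 0.943).

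Without wild type array 1, Cryab was lower on all 3 congenic hypothalamus arrays than on both wild type arrays. The difference was -1.07 with an interval of -1.95 to -0.19, 2.10-fold, with an unadjusted p of 0.0231 from limma that did not pass adjustment (adjusted p = 0.900). Among all probes, 22.6% had congenic and wild type arrays that did not overlap in this comparison of 3 against 2. The strain effect of Cryab was then larger in muscle than in hypothalamus by 1.37, with an interval of 0.27 to 2.47 and an unadjusted p of 0.0183 (limma, adjusted p = 0.718), where 6.74% of all probes had an unadjusted p under 0.05. Oligodendrocyte markers (5 of 7 measured) summed to 12.68 to 17.45 on the congenic hypothalamus arrays and 13.18 to 13.63 on wild type arrays 2 and 3. Anterior pituitary markers (7 of 9 measured) summed to 13.83 to 19.11 on the congenic arrays and 14.13 to 14.19 on the same wild type arrays. The part of these cells in the Cryab values was not tested.

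Hspb7 encodes a small heat shock protein of heart and skeletal muscle that keeps filament proteins from aggregating. It read 14.21, 13.62 and 14.41 on the congenic muscle arrays, against 13.59, 13.71 and 14.80 on the wild type muscle arrays. The strains overlapped over nearly the whole range, and the means were 14.08 ± 0.41 in congenic muscle and 14.03 ± 0.67 in wild type muscle (SD, n = 3 each). The difference was 0.05 with an interval of -0.70 to 0.79 (limma, adjusted p = 0.983). In hypothalamus it read 7.59, 8.03 and 8.36 on the congenic arrays, against 8.95, 7.46 and 9.19 on the wild type arrays. Wild type arrays 1 and 3 were above every congenic array and wild type array 2 was below them all. The difference was -0.54 with an interval of -1.86 to 0.77 with all 6 arrays, and -0.33 with an interval of -1.73 to 1.06 without wild type array 1 (limma, adjusted p = 0.936 and 0.957). Hypothalamus values of this probe were among the low ones of the array, at a median percentile of 25.8 over the 5 arrays without wild type array 1, and no detection calls were on hand to say whether they were above background.

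Dnajb1 encodes HSP40, the stress-inducible J protein that works with the cytosolic HSP70 proteins. It read 12.37, 10.99 and 11.07 on the congenic muscle arrays, against 11.90, 10.50 and 10.46 on the wild type muscle arrays. In each strain 1 array was well above the other two, and the difference of 0.52, with an interval of -0.57 to 1.61, was within that spread (limma, adjusted p = 0.855). In hypothalamus it read 13.09, 12.85 and 13.65 on the congenic arrays, against 7.64, 13.27 and 13.26 on the wild type arrays. Wild type array 1 alone was low, and this array decided the strain difference. With it the difference was 1.81 with an interval of -1.46 to 5.07, and without it -0.07 with an interval of -0.80 to 0.66 (limma, adjusted p = 0.936 and 0.983). The means were 13.20 ± 0.41 in congenic hypothalamus (SD, n = 3) and 13.27 on wild type arrays 2 and 3. The tissue difference of the strain effects was -1.29 with all arrays and 0.59 without wild type array 1 (limma, adjusted p = 0.915 and 0.870), and so changed its sign with that array.

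**Figure D2:**
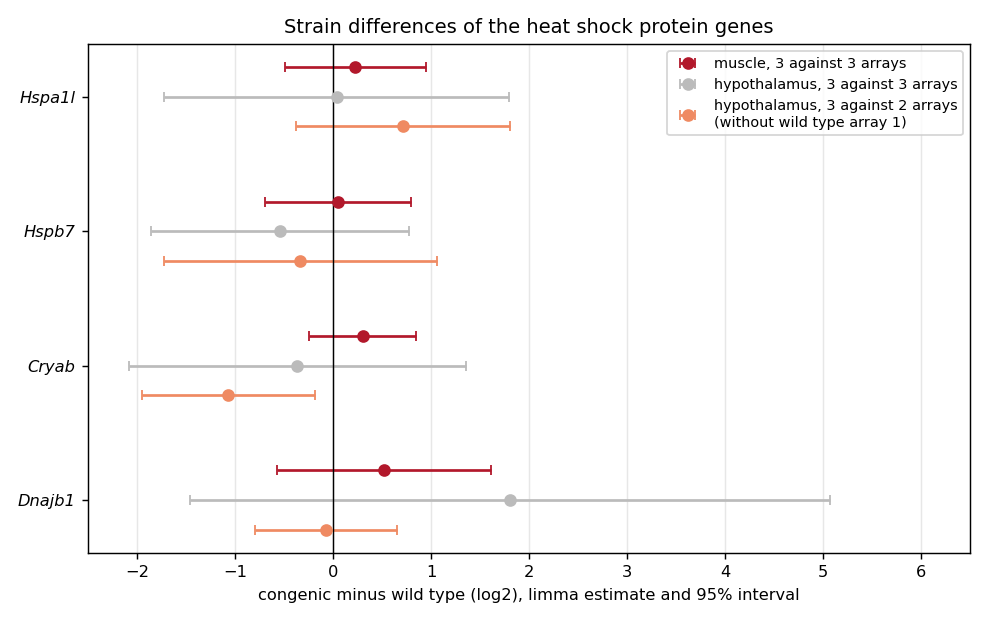
Strain difference of each measured heat shock gene, congenic minus wild type in log2 units on the horizontal axis, with limma's 95% interval, for muscle (3 against 3 arrays) and for hypothalamus with all arrays (3 against 3) and without wild type array 1 (3 against 2). Every interval includes 0 except that of Cryab in hypothalamus without wild type array 1, at -1.95 to -0.19, which did not pass adjustment.

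Levels in the 2 tissues are set side by side with no test, since the tissues were normalized apart. Hspa1l, Cryab and Hspb7 were higher on every one of the 6 muscle arrays than on any of the 6 hypothalamus arrays, where 13.3% of all probes showed this and 6.91% the opposite. Muscle medians exceeded the medians of the 5 hypothalamus arrays without wild type array 1 by 2.92 for Hspa1l, 3.84 for Cryab and 5.93 for Hspb7, in log2 units. Dnajb1 went the other way, with a muscle median lower by 2.24 (-2.24) and every muscle array, at 10.46 to 12.37, below those 5 hypothalamus arrays, at 12.85 to 13.65. Over these 11 arrays 11.8% of all probes lay lower in muscle and 17.7% higher. Wild type hypothalamus array 1, at 7.64, lay below all muscle arrays for Dnajb1, so with all 12 arrays the tissues overlapped. As a percentile among all probes of an array, Cryab had a median of 99.3 in muscle and 95.7 on the 5 hypothalamus arrays, Hspb7 90.0 and 25.8, Hspa1l 83.2 and 59.9, and Dnajb1 72.0 and 88.7. In pieces of whole tissue, fewer cells of a type and less RNA per cell cannot be told apart.

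The other small heat shock proteins, too, lay higher in muscle; they and all genes named here for their tissue level were picked after their values were seen. Of 7 listed, 5 were measured. Over all 12 arrays 4 were higher on every muscle array than on every hypothalamus array, beside 13.3% of all probes. The opposite held for 0 of the 5, beside 6.91% of all probes. Hspb2, which lies beside Cryab in the mouse genome, had a muscle median of 15.19 and a median of 7.68 on the 5 hypothalamus arrays. Hspb3 had 16.24 in muscle and 8.83 in hypothalamus, Hspb6 had 19.15 and 11.91, and Hspb8, which works with Bag3 to clear damaged filament proteins, had 17.68 and 12.18. Cryaa, the lens crystallin, overlapped between tissues. Bag3, the partner of Hspb8 and of HSP70, had a muscle median of 14.17 and a hypothalamus median of 10.81, on arrays that did not overlap.

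Of 11 other HSP70 and HSP110 genes, all measured, 2 were higher in muscle and 6 were lower over the 11 arrays, beside 17.7% and 11.8% of all probes. Over all 12 arrays 1 was higher and 1 was lower, beside 13.3% and 6.91% of all probes. The 2 higher ones over the 11 arrays were Hspa9 and Hspa12b. Hspa9, the mitochondrial HSP70, had 13.90 in muscle and 9.67 in hypothalamus. Hspa12b, a distant HSP70 of endothelial cells, had medians that differed by 2.13. Among the lower ones were Hspa5 (BiP) with 15.57 in muscle and 17.26 in hypothalamus and Hyou1 with 8.09 and 11.92. Both belong to the endoplasmic reticulum, but the direction was not shared by all chaperone genes of that compartment. Over the 11 arrays Dnajb9, Dnajb11, Dnajc1, Dnajc3 and Sil1 were higher in muscle, and Hsp90b1 overlapped between tissues. By percentile within the array Dnajb11 and Sil1 overlapped, and Sil1 also overlapped over all 12 arrays. Hspa13, which is microsomal, was lower in muscle over the 11 arrays. Hsph1, an HSP110 that helps HSP70 exchange its nucleotide, had 13.71 in muscle and 15.03 in hypothalamus. Of 12 measured HSP90 cochaperones, 5 were higher in muscle and 1 was lower over the 11 arrays on the deposited log2 scale. The shares of all probes were 17.7% and 11.8%. By percentile within the array 4 of these cochaperones were higher and 4 were lower. Among them were Unc45b, the myosin chaperone of striated muscle, with 16.59 in muscle and 8.52 in hypothalamus, and Smyd1, a muscle methyltransferase, with 14.35 and 10.66.

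J proteins other than Dnajb1 had 8 of 23 measured genes higher in muscle and 3 lower over the 11 arrays, and chaperonins with HSP60 had 2 of 14 higher and 2 lower, or 2 higher and 6 lower by percentile. Over the 80 measured of 96 listed chaperone genes, 28 were higher in muscle, 13 were lower and 39 overlapped over the 11 arrays, beside 17.7% and 11.8% of all probes. Over all 12 arrays 23 were higher and 6 lower, beside 13.3% and 6.91% of all probes. By percentile within the array 25 of the 80 were higher in muscle and 21 were lower, so their split between the directions depends on the scale of tissues that were normalized apart. The share of all probes was not computed on the percentile scale, so no percentile count given here has a background beside it.

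**Figure D3:**
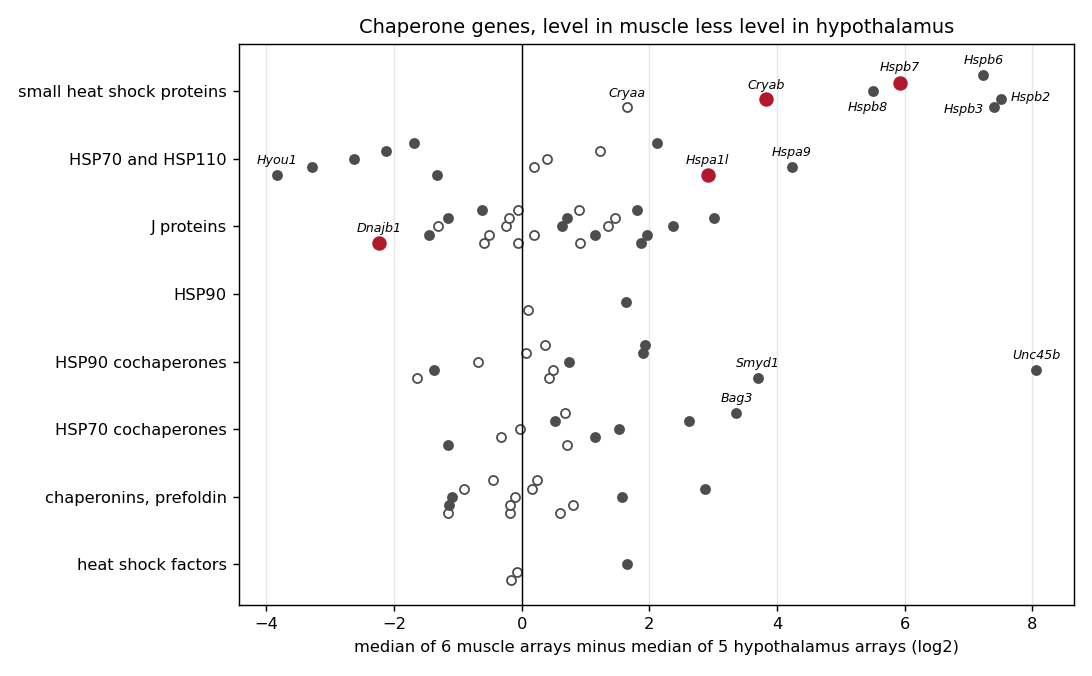
Median of the 6 muscle arrays minus the median of the 5 hypothalamus arrays without wild type array 1, in log2 units on the horizontal axis, for each measured chaperone gene by family. Red points are Hspa1l, Hspb7, Cryab and Dnajb1, filled points are genes whose 11 arrays do not overlap between tissues, and open points are genes that overlap. All 7 measured small heat shock proteins lie to the right of 0, and Dnajb1 lies at -2.24.

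The wider chaperone network did not pass the strain test in either tissue. Of the 80 measured chaperone genes 0 passed in muscle, in hypothalamus with 6 arrays and in hypothalamus without wild type array 1. In muscle 33 differences were positive and 47 negative with a median of -0.07, beside a median of 0.01 over all probes, and 3 had an unadjusted p under 0.05 (limma), as did 5.01% of all probes. In hypothalamus 50 were positive and 30 negative with a median of 0.21, beside -0.07 over all probes, and 0 had an unadjusted p under 0.05, against 1.99% of all probes. Without wild type array 1 the split was 34 positive and 46 negative with a median of -0.07, beside -0.01 over all probes, and 6 had an unadjusted p under 0.05, against 5.33% of all probes.

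Of 5 listed genes for heat shock transcription factors and their binding protein, 3 were measured: Hsf2, Hsf4 and Hsbp1, the last of which binds heat shock factor 1 and holds it back. Hsf4, a factor known for lens fibre cells, read 10.81, 10.30 and 10.35 on the congenic hypothalamus arrays, against 9.65, 12.10 and 12.21 on the wild type arrays. Wild type array 1 was below every congenic array and the other wild type arrays were above them. The difference was -0.83 with an interval of -2.70 to 1.03 with all arrays, and -1.67 with an interval of -2.41 to -0.93 without wild type array 1 (limma, adjusted p = 0.936 and 0.900). With congenic array 3 left out as well, 2 against 2 arrays, Hsf4 passed at -1.60 (limma, adjusted p = 0.0323). That fit was chosen after seeing the data, and 606 of 33012 probes passed in it. With any other array left out beside wild type array 1, 0 passed. In muscle Hsf4 differed by 0.30 with an interval of -0.41 to 1.02 (limma, adjusted p = 0.867).

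Among the other HSP70 genes, Hspa2, a chaperone of male germ cells, read 10.17, 11.16 and 10.55 on the congenic muscle arrays, against 8.98, 9.74 and 9.73 on the wild type muscle arrays. All 3 congenic arrays were above all 3 wild type arrays, as for 11.9% of all probes in either direction. The difference was 1.14 with an interval of 0.22 to 2.06 and did not pass adjustment (limma, adjusted p = 0.835). In hypothalamus it was 1.29 with all arrays and -0.29 without wild type array 1, on which Hspa2 read 7.92 against 12.01 to 12.78 on the other 5. Hspa13, a microsomal HSP70, differed by -0.96 in muscle, with an interval of -2.17 to 0.24, and by 1.65 in hypothalamus with all arrays and 0.87 without wild type array 1, with intervals of -0.20 to 3.50 and -0.02 to 1.76.

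Dnajc12, a J protein for aromatic amino acid hydroxylases, read 14.32, 14.21 and 14.59 on the congenic hypothalamus arrays, against 14.67, 15.82 and 15.37 on the wild type arrays. Every congenic array was below every wild type array, as for 9.16% of all probes in either direction. The difference was -0.91 with an interval of -2.24 to 0.41 with all arrays and -1.22 with an interval of -1.93 to -0.51 without wild type array 1 (limma, adjusted p = 0.936 and 0.900). It, too, passed without both wild type array 1 and congenic array 3, at -1.33 (limma, adjusted p = 0.0323). In that fit, chosen after seeing the data, 606 of 33012 probes passed. In muscle it differed by 0.17 with an interval of -0.29 to 0.62.

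Of the HSP90 proteins Hsp90b1, the HSP90 of the endoplasmic reticulum, differed by -0.34 in muscle and by 2.34 in hypothalamus with all arrays, where the interval was -0.40 to 5.07. Without wild type array 1, on which it read 8.36, the hypothalamus difference was 1.17 with an interval of -0.70 to 3.05. Trap1, the mitochondrial HSP90, differed by -0.06 in muscle, and in hypothalamus by 0.24 with all arrays and by -0.20 without wild type array 1. Chordc1, an HSP90 cochaperone, read 12.73, 13.45 and 13.30 on the congenic hypothalamus arrays, against 12.25, 12.43 and 12.43 on the wild type arrays, and 14.60, 14.64 and 14.04 in congenic muscle, against 14.77, 14.79 and 14.70 in wild type muscle. Congenic arrays were all higher in hypothalamus and all lower in muscle, by 0.79 with an interval of -0.52 to 2.11 and by -0.33 with an interval of -0.77 to 0.12 (limma, adjusted p = 0.936 and 0.835). Of all probes, 9.16% in hypothalamus and 11.9% in muscle had strains that did not overlap, in either direction. Without wild type array 1 the hypothalamus difference of Chordc1 was 0.73 with an interval of 0.03 to 1.44 (limma, unadjusted p = 0.0432, adjusted p = 0.900). Stip1, which links HSP70 to HSP90, differed by 1.74 in hypothalamus with all arrays and by -1.14 without wild type array 1, on which it read 8.74 against 15.71 to 17.59 on the other 5.

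Of the 10 measured cochaperones of HSP70, 0 passed. Sil1, the nucleotide exchange factor of BiP, differed by 0.61 in muscle with an interval of 0.10 to 1.12 (limma, adjusted p = 0.835). Its congenic muscle arrays, at 12.98 to 13.60, lay above the wild type arrays, at 12.49 to 12.77. Muscle strains did not overlap, in either direction, for 11.9% of all probes. In hypothalamus Sil1 differed by -0.29 with all arrays and -0.14 without wild type array 1. Hspbp1, a nucleotide exchange factor of cytosolic HSP70, differed by 0.22 in muscle, by 0.06 in hypothalamus with all arrays and by -0.86 without wild type array 1, with an interval of -1.64 to -0.08 in the last. The small heat shock proteins Hspb2 and Hspb6 differed by 0.35 and -0.10 in muscle, with intervals of -0.09 to 0.79 and -0.54 to 0.33. In hypothalamus Hspb2 differed by -0.08 with and without wild type array 1, and Hspb6 by -0.20 with it and -0.44 without it. The mitochondrial chaperonin Hspd1 and its partner Hspe1 differed by -0.57 and -0.46 in muscle, with intervals of -1.29 to 0.14 and -0.98 to 0.06. In hypothalamus Hspd1 differed by 1.83 with all arrays and by -0.52 without wild type array 1, and Hspe1 by 0.18 and 0.68.

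Genes that acute stress or handling is known to switch on beside heat shock genes had 12 of 12 measured, and 0 passed in either tissue. Without wild type hypothalamus array 1, 3 of the 12 differences were positive and 9 negative, and 2 had an unadjusted p under 0.05 (limma), beside 5.33% of all probes. Egr1, an immediate early transcription factor, differed by -0.25 in muscle with an interval of -1.29 to 0.79, and by 0.79 in hypothalamus with all arrays. Without wild type array 1 Egr1 differed by -0.81 with an interval of -1.58 to -0.05 (limma, unadjusted p = 0.0396, adjusted p = 0.900). Jun, a subunit of the AP-1 transcription factor, read 13.34, 13.63 and 12.30 on the congenic hypothalamus arrays, against 14.23, 12.15 and 12.05 on the wild type arrays, and differed by 0.28 with all arrays and by 0.99 with an interval of 0.05 to 1.93 without wild type array 1 (limma, adjusted p = 0.954 and 0.900). Without congenic array 3 as well, Jun passed at 1.39 (limma, adjusted p = 0.0204), in the fit chosen after seeing the data where 606 of 33012 probes passed.

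Around the HSP70 cluster the nearest measured genes were Cfb, C2, Zbtb12, Ehmt2 and Slc44a4 on one side and Lsm2, D17H6S56E-5, Vars, Vwa7 and Msh5 on the other, and 0 of the 10 passed the strain test in either tissue. In muscle 6 of the 10 differences were positive, with a median of 0.11 and a range of -0.71 to 1.38. Cfb, complement factor B of the alternative pathway, was at the top of that range. It read 11.005, 11.61 and 11.73 on the congenic muscle arrays, against 10.46, 10.14 and 9.61 on the wild type muscle arrays. The strains did not overlap, as for 11.9% of all probes in either direction. The interval of Cfb was 0.59 to 2.17 (limma, unadjusted p = 0.00303, adjusted p = 0.835). Macrophage markers (5 of 8 measured) summed to 17.22 to 17.37 on the congenic muscle arrays, against 16.11 to 16.71 on the wild type muscle arrays, and fibroblast markers (6 of 6 measured) to 20.76 to 20.85, against 20.41 to 20.70. Their part in the Cfb values was not tested. In hypothalamus the 10 genes differed by -1.02 to 1.19 with all arrays and by -0.32 to 1.20 without wild type array 1, and Cfb by -0.30 and 0.28.

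Around Hsp90ab1, the constitutive cytosolic HSP90, the nearest measured genes were Cdc5l, Spats1, Aars2, Tcte1 and Nfkbie on one side and Tmem63b, Mrpl14, Vegfa, Rsph9 and Gtpbp2 on the other, and 0 of the 10 passed. Rsph9, a radial spoke protein of motile cilia, read 9.26, 9.58 and 9.95 on the congenic muscle arrays, against 8.23, 7.80 and 7.94 on the wild type muscle arrays. The congenic arrays were all higher, by 1.60 with an interval of 0.67 to 2.54 (limma, unadjusted p = 0.00340, adjusted p = 0.835). Of all probes, 11.9% had muscle strains that did not overlap, in either direction. In hypothalamus Rsph9 differed by 1.81 with an interval of -1.23 to 4.86 with all arrays, and by 0.14 with an interval of -0.89 to 1.16 without wild type array 1, on which it read 7.73, below the other 5. Tmem63b, an ion channel opened by membrane stretch, read 13.02, 12.47 and 13.76 on the congenic hypothalamus arrays, against 14.28 and 14.29 on wild type arrays 2 and 3 and 7.46 on wild type array 1. It differed by -1.20 with an interval of -2.10 to -0.30 without wild type array 1 and by 1.08 with all arrays (limma, adjusted p = 0.900 and 0.937). Without that array Aars2 differed by -1.03 with an interval of -1.96 to -0.10. Gtpbp2 then differed by -1.07 with an interval of -2.13 to -0.00045. Of the 10 genes 4 differences were positive and 6 negative in that comparison. An unadjusted p under 0.05 (limma) was met there by 3 of the 10, beside 5.33% of all probes. With all arrays it was met by 0, beside 1.99%. An unadjusted p under 0.01 was met in muscle by 1 of the 10 genes at each locus, where 0.836% of all probes met it.

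**Figure D4:**
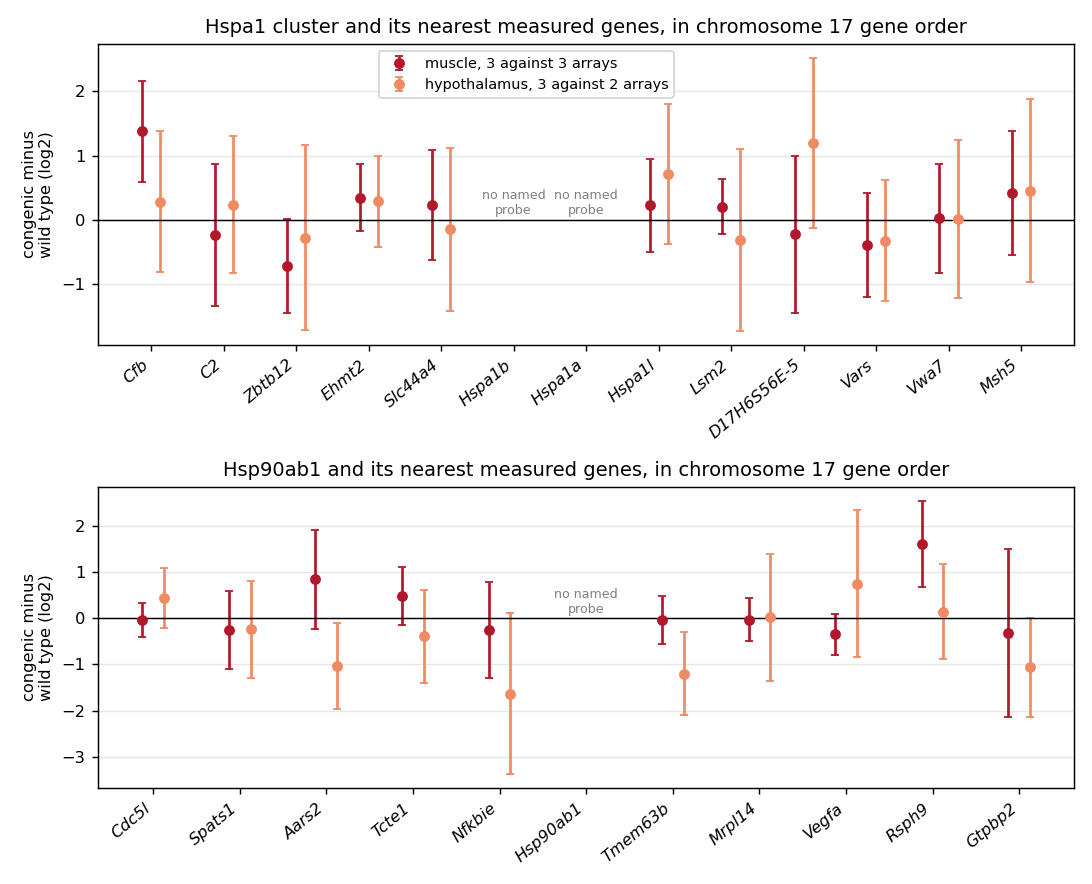
Strain difference, congenic minus wild type in log2 units with limma's 95% interval on the vertical axis, of the 5 measured genes on either side of the Hspa1 cluster (upper panel) and of Hsp90ab1 (lower panel), in gene order along chromosome 17 and not to scale. Red points are muscle (3 against 3 arrays) and orange points are hypothalamus without wild type array 1 (3 against 2). Cfb at 1.38 and Rsph9 at 1.60 stand highest in muscle.

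The 4 measured heat shock genes did not vary together from array to array once each tissue's mean was taken out. Over the 11 arrays without wild type hypothalamus array 1, Pearson's r between pairs of them ran from -0.28 for Cryab and Dnajb1 to 0.27 for Hspb7 and Cryab, as a description of arrays that share their normalization. By the same measure, the genes most like Hspa1l among 13839 others were Il6st (r = 0.94), Wdtc1 (0.93), Pkdcc on chromosome 17 (0.92), Cma2 (0.90) and P4hb (0.89). Those most like Cryab were Comp (0.97), Egln2 (0.96), Gstm5 (0.95), Ctf1 (0.94) and Wdr83os (0.94). Those most like Hspb7 were Teddm1b (0.91), Lyzl1 (0.88), Dok3 (0.88), C1qtnf1 (0.88) and Akr1c6 (0.88), and those most like Dnajb1 were Ppip5k2 (0.93), Ttc39c (0.90), Elovl5 (0.90), Kifc5b on chromosome 17 (0.89) and Htr1d (0.89). None of the 4 appeared among the 5 genes most like another.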

How the data were processed

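Total RNA was turned into digoxigenin-labelled cRNA and read by chemiluminescence, per the labels' protocols. The deposited values were taken as log2 intensities, the base being inferred from their range; the arrays of a tissue had been brought to 1 distribution before they were deposited, with software not given in the sources used here. All 33012 probes had a value on all 12 arrays, with no detection calls. The number of arrays limits the precision. Of the probes, 14411 carried 1 gene symbol. Strain differences were fitted in each tissue with limma 3.58.1 (R 4.3.3), with moderation that follows a mean-variance trend, and an interaction contrast over 12 arrays, with Benjamini-Hochberg adjustment over all probes, after checks on simulated data. The replicate numbers were not used to pair the arrays in the main fits. Members and gene lists were chosen with earlier results of these data known. Chaperones were named at an unadjusted p under 0.01, or as the 2 with the smallest p in their list; neighbours were the 5 measured genes on either side. The most-alike rule, meant for Hspa1a, Hspa1b and Hsp90ab1, was applied to the 4 measured genes after seeing the data.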

Additional observations from a re-analysis of the deposited data

Results flagged for a closer look

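In some of the named genes, not all of them chaperones, every congenic array differed one way from wild type in muscle and the opposite way in hypothalamus. The difference was not tested under that criterion, and the share of all probes that meet it was not computed. Strains did not overlap, in either direction, for 11.9% of all probes in muscle. In hypothalamus the share was 9.16% with all arrays and 22.6% without wild type array 1. Those below had been named for a small limma p in these same strain comparisons. Chordc1 was lower on all congenic muscle arrays and higher on all congenic hypothalamus arrays, with a strain effect in muscle minus that in hypothalamus of -1.12 with all arrays and -1.06 without wild type hypothalamus array 1. Without that array Hsf4 was higher on congenic muscle and lower on congenic hypothalamus arrays, at 1.97, and Jun was lower on congenic muscle and higher on congenic hypothalamus arrays, at -1.30. In limma's own test of the difference over all probes none of them passed, with adjusted p of 0.913 for Chordc1 with all arrays and, without wild type hypothalamus array 1, of 0.696 for Chordc1, 0.468 for Hsf4 and 0.692 for Jun.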

How the results depend on the processing

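No alternative brought Hspa1l, Hspb7, Cryab or Dnajb1 past the threshold in either tissue. Over all probes, 6 passed in muscle, against 1 with all 12 arrays in 1 fit, 2 without the mean-variance trend, 2 with low values floored, and 2 to 8 when 1 array was left out. In hypothalamus 0 passed (658 at an unadjusted p under 0.05), against 5 with array weights and without wild type array 1 (chosen after seeing the data). Leaving out 1 array, or wild type array 1 and 1 more, gave 0 to 606. The 606 came without wild type array 1 and congenic array 3 (2 against 2 arrays), also chosen after seeing the data, and every other such fit gave 0. In that fit Hsf4 at -1.60, Dnajc12 at -1.33, Stip1 at -1.58, Egr1 at -1.08 and Jun at 1.39 passed, with limma's adjusted p between 0.0204 and 0.0444. For the difference between tissues 0 passed, against 1 with array weights. The cause was not tested.

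Of the named genes, 7 of 22 in muscle and 13 of 20 in hypothalamus changed sign under at least 1 alternative. With an array left out, muscle differences ran from -0.15 to 0.50 for Hspa1l, -0.17 to 0.43 for Hspb7, -0.20 to 0.049 for Trap1, -0.023 to 0.45 for Stip1, -0.087 to 0.43 for Hspbp1, -0.27 to 0.034 for Hspb6 and -0.73 to 0.11 for Egr1. Array weights gave -0.016 for Hspa1l and -0.067 for Hspb7 in muscle. With 1 array, or wild type array 1 and 1 more, left out, hypothalamus differences ran from -0.42 to 1.03 for Hspa1l, -1.20 to 0.53 for Hspb7, -1.29 to 0.10 for Cryab, -0.30 to 2.74 for Dnajb1, -0.42 to 2.14 for Hspa2, -0.44 to 0.46 for Trap1, -1.58 to 3.28 for Stip1, -1.08 to 0.62 for Hspbp1, -0.62 to 0.45 for Hspb2, -0.29 to 1.28 for Hspe1, -0.88 to 3.05 for Hspd1, -1.08 to 1.62 for Egr1 and -0.10 to 1.39 for Jun. Array weights gave, with all arrays and then without wild type array 1, -0.041 and -0.16 for Dnajb1, -0.14 and -0.24 for Hspa2, -0.25 and -0.28 for Trap1, -1.21 and -1.34 for Stip1, -0.95 and -0.93 for Hspbp1, -0.62 and -0.75 for Hspd1, and -0.82 and -0.94 for Egr1. Hspb2 came to 0.060 with low values floored and 0.14 with array weights. The difference between tissues ran from -0.48 to 0.64 for Hspa1l and -2.22 to 0.59 for Dnajb1 with 1 array left out, and array weights gave -0.59 and 0.66. Cfb and Rsph9 in muscle kept their sign under each alternative run, at 1.15 to 1.60 and 1.43 to 1.77 with 1 array left out.

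The labels number the samples of both strains alike. With group means taken out, same-numbered arrays correlated at 0.07, 0.01 and 0.06 in muscle and 0.03, -0.13 and 0.14 in hypothalamus. Arrays of different numbers were not compared, so these values cannot decide whether the numbers pair the mice. With the replicate block 6 probes passed in muscle, 0 in hypothalamus and 0 for the difference between tissues. Each of the 4 measured heat shock genes had 1 probe, so no other probe could be tried for them. Where another named gene had several probes, the brightest over the 12 arrays stood for it, and its other probes were not tried. Low values cannot be told from background, since signal over background is unknown.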
